A study of Homo sapiens with 18 samples.

Results

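Cells of the human colon carcinoma line Caco-2, widely used to model intestinal epithelium, were followed through the later step of a riboflavin depletion, from 48 h to 72 h without the vitamin. The comparison is between 6 of the 18 arrays of the series, the 3 from depleted cells at 72 h and the 3 from depleted cells at 48 h. They were taken by their labels. The spread behind the tests was estimated from all 18 arrays. Depleted cells were grown in riboflavin-free DMEM and control cells in standard DMEM, both with 10% foetal calf serum and antibiotics. The labels mention dialysed serum without saying for which arrays it was used, so how much riboflavin the serum left is not known. For comparison, the same step was taken in control cells, with 3 arrays at 72 h and 3 at 48 h, and the earlier step in depleted cells, with 3 arrays at 48 h and 3 at 24 h. All 6 groups carried the same unmodified line. They differed in medium and time, and whether the serum differed as well is not known. Control cells at 48 h and 72 h had also stayed in culture for the same time, so the step in control cells measures what time in culture did without depletion.

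Riboflavin, vitamin B2, enters cells through SLC52 transporters, is phosphorylated to FMN by riboflavin kinase and is turned into FAD by FAD synthase. Flavin enzymes carry electrons in fatty acid oxidation and in the respiratory chain, and glutathione reductase and thioredoxin reductase need FAD to keep the thiol buffers of the cell reduced. The intestinal epithelium divides throughout life and is the site where dietary riboflavin is taken up.

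The arrays carried a numbering that passed through the 6 groups 3 times, and each pass is called a set here. Every set holds 1 array of each group, and arrays of the same set deviated from their group means together, so each 72 h array was compared with the 48 h array of its own set. In set 2 the numbers of the 24 h arrays and of the 48 h control array carry a suffix that the labels do not explain. Set 2 also stood apart from the others in its signals. Its arrays had a highest signal of 27380.2 to 31409.8, against 7668.7 to 8574.5 in set 1 and 6904.8 to 8357.9 in set 3, and its median signals of 25.7 to 31.3 lay above the 18.4 to 23.3 of the other sets. Nothing in the labels says that replicates came from separate cultures, and p-values here reflect the spread between these arrays alone, which may be technical, and the number of arrays limits the precision. Levels are array signals, which say nothing of RNA per cell: fewer cells of a type and less RNA per cell cannot be told apart in such bulk samples.

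Markers of colon epithelium were read across the step, and a lack of change between times does not by itself check the label of the line. VIL1, CDX2, EPCAM, KRT8, KRT18, CDH17 and CDH1 were measured and none passed the test between 72 h and 48 h, with log2 changes of -0.30 to 0.21. Their summed signal was 21350 to 29890 at 72 h, against 19980 to 30030 at 48 h. EPCAM, an epithelial adhesion molecule, had signals of 5261.4, 9830.9 and 4884.2 in sets 1, 2 and 3 at 72 h, against 4920.6, 11710.9 and 4924.5 at 48 h. LGALS4, a galectin of the gut epithelium, was under the limit for testing, with a median of 4.4 over the 6 arrays. That limit is a signal of 19.62. Of 13 leukocyte markers 6 were tested and none passed, and the summed signal of the tested markers was 436.4 to 479.5 at 72 h, against 484.6 to 545.5 at 48 h. Of 13 fibroblast markers 8 were tested and none passed, with sums of 884.5 to 1054 at 72 h, against 890.8 to 1252 at 48 h. Of 10 goblet cell markers 4 were tested and none passed, with sums of 3899 to 4141 at 72 h, against 4233 to 4780 at 48 h. Of 10 enteroendocrine markers 1 was tested and did not pass. Among the markers under the limit were PTPRC of leukocytes, COL1A2 of fibroblasts and MUC2 of goblet cells, with medians of 7.9, 9.2 and 11.0 over the 6 arrays. The part of these markers in any result was not tested.

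The later step without riboflavin moved many genes. At an adjusted p under 0.05 in limma, a linear model with moderated variances, 2168 of 27307 probe sets (7.94 percent) differed between 72 h and 48 h in depleted cells, 1070 higher (3.92 percent) and 1098 lower (4.02 percent). Of these, 305 were over 2-fold higher and 203 over 2-fold lower at 72 h. With each gene represented by its brightest probe set, 1067 of 12319 genes passed (8.66 percent), 530 higher (4.3 percent) and 537 lower (4.36 percent). These shares are the background for every count of list members given for this step. Between the 3 arrays of 72 h and the 3 of 48 h, 18.9 percent of all 12319 genes did not overlap. Of the 1067 genes that passed, 434 lay wholly above, 428 wholly below and 205 overlapped, so a lack of overlap is usual for a called gene. The 3 sets moved the same way in 49.7 percent of all genes and in 1066 of the 1067. In the text, a gene that rose or fell is one that passed this test, and changes are differences of log2(signal + 16), which understate the change of dim genes.

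The same 24 h in control cells moved fewer probe sets past the test: 371 (1.36 percent), 213 higher (0.78 percent) and 158 lower (0.579 percent). By gene, 225 passed (1.83 percent), 134 higher (1.09 percent) and 91 lower (0.739 percent). The 2 steps share no arrays. Of the genes that passed in them, 54 moved the same way in both, which is 5.1 percent of those called in depleted cells and 24.0 percent of those called in control cells, and 14 moved in opposite directions. The difference between the steps, tested as an interaction, passed for 615 probe sets (2.25 percent), 280 with a higher change in depleted cells (1.03 percent) and 335 with a lower one (1.23 percent). That split moved with the scaling: centring arrays on the 75th percentile gave 378 higher and 142 lower, and quantile normalization gave 317 and 239. The centring moved the median difference over all probe sets to 0.06, against -0.07 with the scaling of the authors. By gene, 321 differences passed (2.61 percent), 145 higher (1.18 percent) and 176 lower (1.43 percent).

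In the earlier step, 48 h against 24 h without riboflavin, 0 probe sets passed (0 percent) in limma, while 3236 had an unadjusted p under 0.05. Other settings of the fit called 90 to 178 there: 90 with a pseudocount of 64, 159 with an intensity trend in the variances and 178 with a stricter filter. Both steps use the 48 h arrays, so no overlap between them is given. Whether the later change differed from the earlier one was tested directly, and 199 probe sets passed (0.729 percent), 130 with a higher later change (0.476 percent) and 69 with a lower one (0.253 percent). By gene, 111 passed (0.901 percent), 76 higher (0.617 percent) and 35 lower (0.284 percent).

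The count for the later step leaned on the pairing and on every set. Without the replicate block it was 263, and all 263 were among the 2168. Fitted with the block to the 6 depleted arrays of 48 h and 72 h alone, it was 0, while 6717 probe sets had an unadjusted p under 0.05. With set 2 left out it was 967, with set 3 left out 10 and with set 1 left out 0, where 3934 probe sets still had an unadjusted p under 0.05. Leaving out 1 of the 6 depleted arrays gave 1011 to 1208, and leaving out any other array did not move it by more than 1.5 times. The control count of 371 became 87 to 178 without any 1 of the 6 control arrays of 48 h or 72 h. The count of 615 for the difference became 217 to 378 without any 1 of the 12 arrays of those times other than the 48 h control array of set 3. The count of 199 for the later against the earlier step became 3 to 21 without 1 of the depleted 48 h arrays, 34 to 77 without 1 of the depleted 24 h or 72 h arrays, and 97 to 110 without the 48 h or 72 h control array of set 1 or the 24 h or 72 h control array of set 3. Leaving out a whole set left 0 to 78 called list members in the later depleted step. For single lists only the fit without set 2 is given below, the mildest of these omissions, and without set 1 no list member passed.

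**Figure D1:**
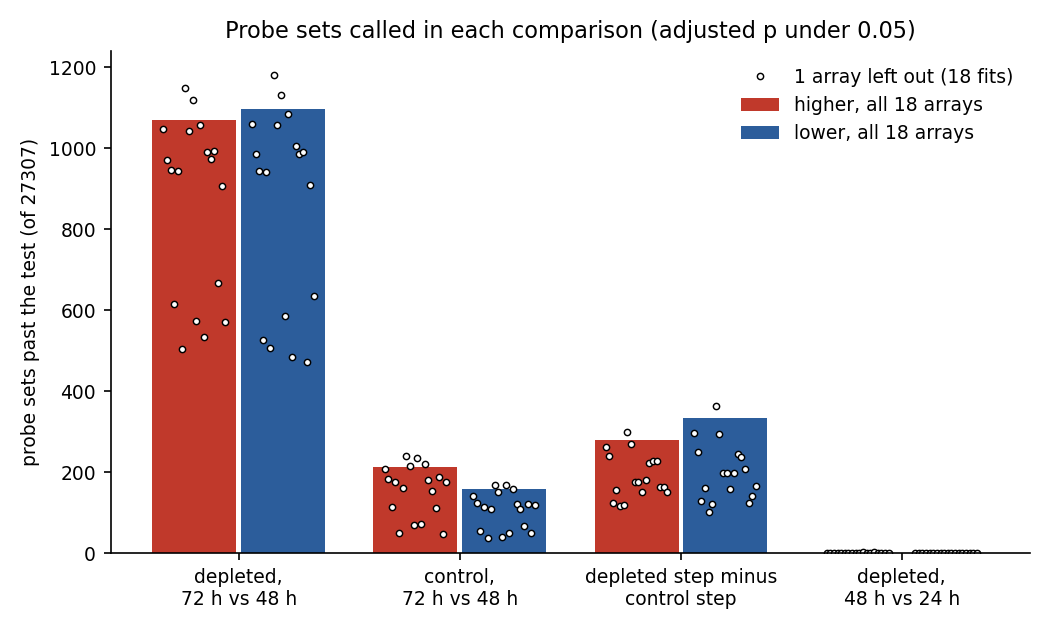
Number of probe sets past the test (vertical axis, of 27307) in depleted cells between 72 h and 48 h, in control cells between the same times, in the difference between these steps, and in depleted cells between 48 h and 24 h. Red and blue bars count higher and lower changes with all 18 arrays and circles the same counts after each single-array omission; the depleted step reached 1070 higher and 1098 lower, against 213 and 158 in control cells and 0 in the earlier step.

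Several metallothioneins, small cysteine-rich proteins that bind zinc and copper, rose. Of 8 measured genes of the metallothionein and zinc list, 5 passed as higher and 0 as lower at 72 h against 48 h without riboflavin, and the median change of the list was 1.68, against -0.02 over all genes. In control cells 0 of the 8 passed, and the median was -0.06. The 5 include MT1H, which reached the limit for testing only through the depleted 72 h arrays: its mean of log2(signal + 16) was 7.63 there and 4.65 to 5.00 in the other 5 groups, against the 5.1546 required over all arrays. A difference was built into its selection, so its values are a description with no test. Without MT1H, 4 of 7 rose, with a median of 1.45 in depleted cells and 0.15 in control cells. MT1H had signals of 195.7, 240.8 and 125.6 in sets 1, 2 and 3 at 72 h, against 14.5, 9.3 and 10.9 at 48 h. Every 72 h array lay above every 48 h array, and the 48 h values lie under the limit of 19.62. The fold of 7.18 (log2 2.84), taken after adding 16, understates a change from such low levels. Among all genes that passed in the later step, 2 of 530 that rose reached the limit only through the depleted 72 h arrays, and 2 of 537 that fell only through the depleted 48 h arrays.

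MT2A, a member expressed in most human tissues, had 495.9, 1140.2 and 540.9 at 72 h, against 110.3, 229.3 and 164.5 at 48 h. All 72 h arrays lay above all 48 h arrays (log2 1.96, SE 0.40, adjusted p = 0.0104), but without the 72 h array of set 2 the change was 1.57 and did not pass (adjusted p = 0.0557). MT1X had 286.3, 309.1 and 375.7 at 72 h, against 49.4, 115.3 and 67.5 at 48 h, again without overlap (log2 1.92, SE 0.31, adjusted p = 0.00356). MT1G and MT1F rose by log2 2.04 (SE 0.28) and 1.45 (SE 0.23). Control cells showed no such step in MT1X, with 22.6, 54.6 and 31.1 at 72 h against 57.7, 55.1 and 30.8 at 48 h, and the difference between media passed for MT1X (log2 2.23, adjusted p = 0.0211). For MT2A (1.81, adjusted p = 0.113), MT1G (1.25, 0.119) and MT1F (1.21, 0.0715) that difference did not pass.

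In the earlier step these genes had log2 values of -0.76 (MT1G) to 0.70 (MT2A) and none passed. MT1HL1, a metallothionein-like locus on chromosome 1, had 379.5, 344 and 262.2 at 72 h, against 6.2, 183 and 15.5 at 48 h. Its 48 h array of set 2 was far above the other 48 h arrays (log2 2.72, SE 0.55, adjusted p = 0.00966), and without the 72 h array of set 1 the change was 2.15 (adjusted p = 0.0520). Probe sets of metallothionein genes match several near-identical members, so which of them carried a signal is uncertain. Counted with MT1H, 5 members passed without the replicate block and without set 2, and 4 to 5 when 1 depleted array was left out.

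Metallothionein promoters are known for metal response elements, short sites bound by the zinc-sensing factor MTF1. The RefSeq promoter table (GRCh38.p14), which covers 250 bases before to 50 after each gene's start, held 3 of the 5 genes called. They are shown because these genes moved together, with each match to the element's core in capitals (TGCACNC or TGCGCNC, on either strand, no matches overlapping). MT1H lies at chr16:56669564-56669863, MT2A at chr16:56608334-56608633 and MT1X at chr16:56682220-56682519, all on the plus strand.
MT1H: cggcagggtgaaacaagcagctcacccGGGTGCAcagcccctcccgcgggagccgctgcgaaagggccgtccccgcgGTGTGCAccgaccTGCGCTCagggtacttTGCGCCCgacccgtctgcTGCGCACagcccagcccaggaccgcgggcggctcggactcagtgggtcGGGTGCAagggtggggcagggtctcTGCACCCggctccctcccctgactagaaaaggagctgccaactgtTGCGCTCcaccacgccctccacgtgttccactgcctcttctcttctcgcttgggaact
MT2A: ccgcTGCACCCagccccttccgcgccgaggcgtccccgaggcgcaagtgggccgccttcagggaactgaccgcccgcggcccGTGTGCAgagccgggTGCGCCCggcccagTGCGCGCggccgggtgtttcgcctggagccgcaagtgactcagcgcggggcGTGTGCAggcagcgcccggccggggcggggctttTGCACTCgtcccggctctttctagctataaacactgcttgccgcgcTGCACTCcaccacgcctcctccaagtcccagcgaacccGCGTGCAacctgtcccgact
MT1X: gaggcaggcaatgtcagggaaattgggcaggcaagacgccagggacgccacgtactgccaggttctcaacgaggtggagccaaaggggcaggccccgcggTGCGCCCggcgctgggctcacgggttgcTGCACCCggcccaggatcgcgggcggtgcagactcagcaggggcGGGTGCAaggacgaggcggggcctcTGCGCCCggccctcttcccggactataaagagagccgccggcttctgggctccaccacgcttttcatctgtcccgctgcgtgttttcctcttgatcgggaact
These windows held 8, 8 and 4 matches. Of all 35116 promoters of the table, 29.6 percent held at least 1 match, 0.6 percent at least 4 and 0.02 percent at least 8. The genes shown belong to a family already known for these elements, so these shares are no test of them. A match describes the letters of the window and does not show that a factor was bound.

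YAP is a coactivator of the TEAD transcription factors in the Hippo pathway, which responds to cell shape and contact. Of 19 measured targets 10 rose and 0 fell between 48 h and 72 h in depleted cells (median 0.52), while in control cells 0 passed (median -0.05) and the difference between media passed for 8, all higher in depleted cells. CCN2, a matricellular growth factor, had 535.9, 318.7 and 390.9 at 72 h, against 132, 82.9 and 151.3 at 48 h. In control cells it had 158.7, 83 and 173.5 at 72 h, against 425.5, 224.8 and 120.7 at 48 h. The depleted arrays did not overlap and the control arrays did (depleted log2 1.65, SE 0.29, adjusted p = 0.00521; control -0.72, adjusted p = 0.249; difference 2.36, adjusted p = 0.0123).

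ANKRD1, an ankyrin-repeat cofactor, had 162.5, 139.5 and 133 at 72 h, against 37.5, 49.8 and 37 at 48 h (log2 1.49, SE 0.25, adjusted p = 0.00439). The angiomotin family member AMOTL2, a feedback inhibitor of YAP, rose by 1.11 (SE 0.18), CRIM1, a BMP-binding membrane protein, by 0.93 (SE 0.18), and the stress-response gene GADD45B by 1.36 (SE 0.24). The 72 h arrays of all these lay above the 48 h arrays. TGFB2, a TGF-beta ligand that also belongs to the TGF-beta and BMP feedback list, had 112.5, 177.9 and 115.3 at 72 h, against 44.9, 70.6 and 42.7 at 48 h (log2 1.13, SE 0.25, adjusted p = 0.0150). Its call was lost without the 48 h array of set 1 (1.11, adjusted p = 0.0542), the 72 h array of set 2 (1.04, 0.0658) or the 48 h array of set 3 (1.09, 0.0579). Counts of rising YAP and TEAD targets were 6 to 8 when 1 depleted array was left out, 4 without set 2 and 3 without the replicate block.

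TEAD factors bind the letters GGAATG. The promoter table held 7 of the 10 members that rose. Of these, 5 had at least 1 match on either strand, and F3 and GADD45B had 0. The promoters of CCN2 (chr6:131951323-131951622, minus strand) and ANKRD1 (chr10:90921038-90921337, minus strand) are shown because they had the most matches, which are in capitals.
CCN2: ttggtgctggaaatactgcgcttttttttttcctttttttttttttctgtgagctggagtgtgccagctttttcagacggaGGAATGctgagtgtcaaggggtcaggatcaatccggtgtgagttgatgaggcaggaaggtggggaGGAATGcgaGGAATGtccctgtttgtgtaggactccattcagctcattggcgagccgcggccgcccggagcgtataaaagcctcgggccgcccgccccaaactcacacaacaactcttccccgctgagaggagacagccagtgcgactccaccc
ANKRD1: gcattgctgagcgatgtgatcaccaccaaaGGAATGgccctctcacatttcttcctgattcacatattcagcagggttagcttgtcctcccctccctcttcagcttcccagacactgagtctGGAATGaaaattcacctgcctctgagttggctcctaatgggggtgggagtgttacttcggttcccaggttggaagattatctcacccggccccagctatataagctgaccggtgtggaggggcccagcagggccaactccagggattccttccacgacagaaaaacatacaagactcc
They held 3 and 2 matches, none overlapping. Over all promoters of the table, 14.0 percent held at least 1, 1.37 percent at least 2 and 0.13 percent at least 3. CCN2 and ANKRD1 were picked by their matches from a list of known targets, so these shares are no test of them. A match does not show that a factor was bound.

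Genes of the AP-1 and immediate early response, which follow growth factor and MAP kinase signalling, moved in different ways in the 2 media. In depleted cells 8 of 31 rose and 1 fell (median 0.24), while in control cells 0 rose and 8 fell (median -0.46), and the difference passed for 9 members, all higher in depleted cells. DUSP1, a phosphatase that switches off MAP kinases, had 1125.6, 1055.8 and 973.8 at 72 h, against 455.4, 381.2 and 378.3 at 48 h (log2 1.35, SE 0.25, adjusted p = 0.00674). In control cells DUSP1 had 275.1, 279.1 and 215.1 at 72 h, against 533.9, 352.4 and 228.7 at 48 h, and the difference between media was 1.79 (adjusted p = 0.0211). For DUSP1, 1 of 3 measured probe sets passed.

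The related DUSP4 rose by 1.49 (SE 0.28) and the EGF receptor ligand EREG by 0.84 (SE 0.16), each without overlap. With all probe sets of EREG averaged, the change was 0.44 and did not pass (adjusted p = 0.238). EGR1, an immediate early zinc finger factor, went the other way, with 224.8, 169.2 and 109.1 at 72 h, against 439.9, 390.1 and 277.1 at 48 h (log2 -1.09, SE 0.28, adjusted p = 0.0291), and fell in control cells as well (-1.44, adjusted p = 0.0242). The fall of EGR1 in depleted cells was lost when any 1 of the 6 depleted arrays was left out, with adjusted p of up to 0.105. The number of rising members was 3 to 6 in those fits, 3 without set 2 and 2 without the replicate block.

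Several epithelial and signalling genes rose in depleted cells where they fell in control cells. RGCC, a regulator of the cell cycle kinase CDK1, had 1648.7, 1396.6 and 1753.6 at 72 h, against 561.2, 332.1 and 626.5 at 48 h. Control cells had 210.7, 201.8 and 253 at 72 h, against 612.6, 373.7 and 496.1 at 48 h, so the arrays parted completely in both media and in opposite directions. The change was 1.67 in depleted cells (SE 0.16, adjusted p = 0.000197), -1.08 in control cells (adjusted p = 0.00715) and the difference 2.75 (SE 0.23, adjusted p = 0.000369), although only 1 of the 2 RGCC probe sets passed in depleted cells.

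PTGS2, the inducible cyclooxygenase of prostaglandin synthesis, had 1152.9, 1094.1 and 894.5 at 72 h, against 419.4, 384 and 276.5 at 48 h. In control cells its signals were 108.9, 147.5 and 141.3 at 72 h, against 556.7, 482.7 and 229.7 at 48 h. Its change was 1.51 in depleted cells (SE 0.23, adjusted p = 0.00266) and -1.48 in control cells (adjusted p = 0.00879), with a difference of 2.99 (adjusted p = 0.00141). PTGS2 was the only member of 22 measured NF-kB genes that rose in depleted cells, where 0 fell, while 4 of them fell in control cells.

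GPRC5A, a retinoic acid induced receptor, and ANXA1, the lipid-binding annexin A1, showed the same opposition. GPRC5A rose by 0.82 in depleted cells and fell by 0.95 in control cells, and ANXA1 rose by 0.57 and fell by 0.98. The rise of ANXA1 was lost in 6 of the 18 single-array omissions, those without a depleted 72 h or 48 h array, with adjusted p of up to 0.116. The proto-oncogene MYC had 2160.9, 968.7 and 3009.9 at 72 h, against 1409.1, 698.8 and 1640.1 at 48 h, with overlap between the groups. Its rise of 0.65 (SE 0.17, adjusted p = 0.0321) was lost without 5 of the 6 depleted arrays (adjusted p of up to 0.139), and in control cells MYC fell by 0.83 (adjusted p = 0.0298).

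NPPB, the gene of brain natriuretic peptide, had the largest difference between media among the named genes. It had 910.2, 795.5 and 1235.9 at 72 h in depleted cells, against 625, 563.5 and 681.8 at 48 h, a change of 0.62 that did not pass (adjusted p = 0.158). In control cells it had 53.9, 75.1 and 113.1 at 72 h, against 981.8, 433.3 and 957.5 at 48 h (log2 -3.02, adjusted p = 0.000128). The difference of 3.64 (SE 0.36, adjusted p = 0.000684) therefore came mostly from the control arrays.

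EMP1, an epithelial membrane protein, had 677.3, 617 and 751.4 at 72 h in depleted cells, against 170.8, 121.2 and 323.4 at 48 h. It rose by log2 1.76 (SE 0.29, adjusted p = 0.00410), while control arrays had 82.2, 17.6 and 45.7 at 72 h against 74.3, 60.9 and 85.9 at 48 h. CLIC5, of the chloride intracellular channel family, rose by 1.79 (SE 0.22, adjusted p = 0.000862). Of 29 measured keratin and junction genes 5 rose and 0 fell, 3 to 4 rose when 1 depleted array was left out, 3 without set 2 and 2 without the replicate block.

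**Figure D2:**
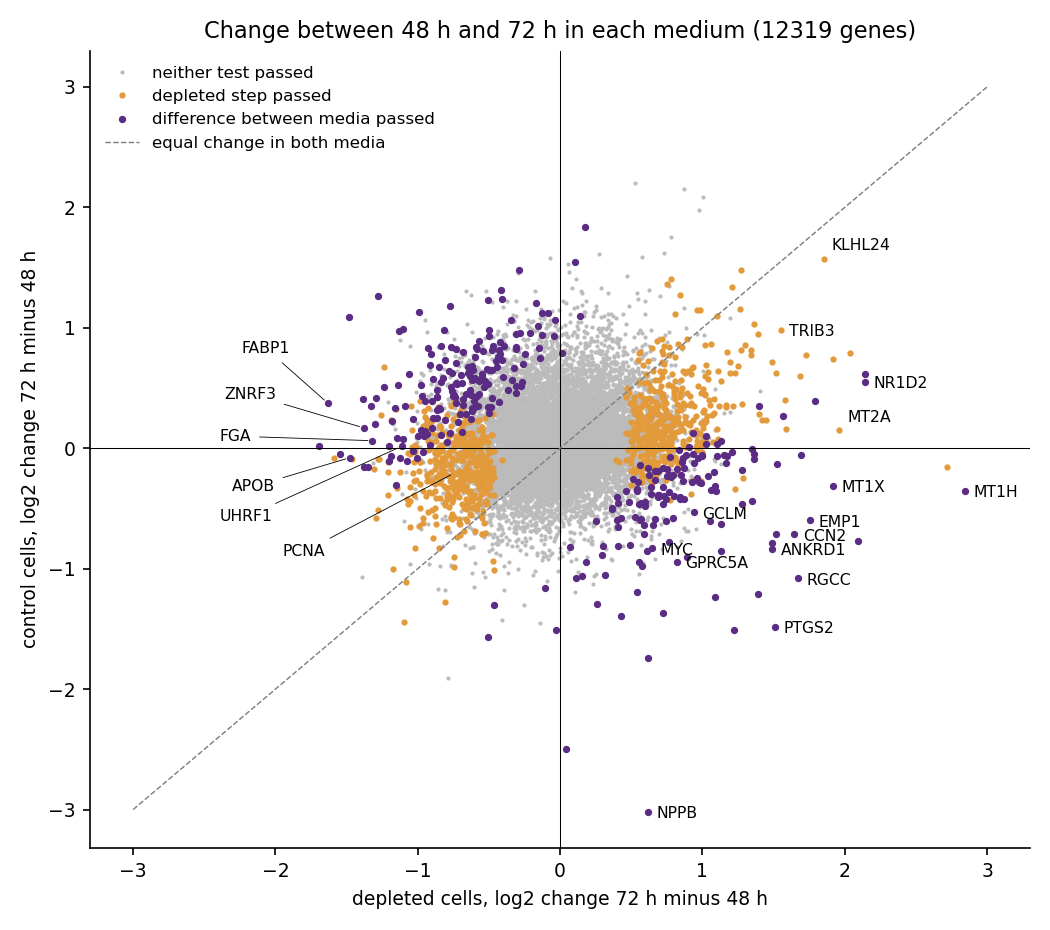
Log2 change of 12319 genes between 72 h and 48 h in depleted cells (horizontal axis) and in control cells (vertical axis), orange where the depleted step passed and purple where the difference between media passed. RGCC (1.67 and -1.08) and PTGS2 (1.51 and -1.48) lie at the lower right, KLHL24 (1.85 and 1.57) near the dashed line of equal change, and APOB (-1.48 and -0.08) at the left.

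NRF2 is a transcription factor that responds to oxidants. Of 29 measured genes under its control 11 rose and 1 fell, with a median of 0.19. In control cells 1 rose and 0 fell (median -0.10), and 6 differences between media passed, all higher in depleted cells. The members that rose included both subunits of glutamate-cysteine ligase, the enzyme that sets the rate of glutathione synthesis.

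GCLM, the modifier subunit, had 454.8, 563.1 and 586.3 at 72 h, against 238.4, 249.8 and 328.4 at 48 h (log2 0.94, SE 0.16, adjusted p = 0.00471). GCLC, the catalytic subunit, had 1995.4, 3128.6 and 1816 at 72 h, against 1106.5, 1420.8 and 1021.2 at 48 h (log2 0.93, SE 0.14, adjusted p = 0.00243). Neither gene's arrays overlapped between the times. For both, the difference between media passed (GCLM 1.47, adjusted p = 0.00761; GCLC 0.98, adjusted p = 0.0247).

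Reductases that hold FAD were among them. TXNRD1, cytosolic thioredoxin reductase, had 3355.5, 2475.7 and 3457.5 at 72 h, against 2289.9, 1380.2 and 1968.7 at 48 h (log2 0.73, SE 0.14, adjusted p = 0.00789). Glutathione reductase GSR rose by 0.71 (adjusted p = 0.0381). The GSR call was lost when any 1 depleted array of 48 h or 72 h was left out, and without set 2. The cystine transporter SLC7A11, which feeds glutathione synthesis and is counted in both the NRF2 and the ATF4 list, rose by 0.69 (adjusted p = 0.0269). ME1, the cytosolic malic enzyme that makes NADPH, rose by 0.56 (SE 0.11). With all probe sets of ME1 averaged, the change was 0.25 and did not pass (adjusted p = 0.408).

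AKR1C2, an aldo-keto reductase, had the largest change of the list, with 4072.1, 4894.8 and 3372.8 at 72 h against 2277, 1427.8 and 1577.4 at 48 h (log2 1.23, SE 0.20, adjusted p = 0.00353). Its probe sets match near-identical AKR1C genes, and the difference between media was 0.60 and did not pass (adjusted p = 0.295). CBR1, a carbonyl reductase, was the member that fell (-0.77, adjusted p = 0.0326). With 1 depleted array left out 5 to 9 members rose, without set 2 it was 4, and without the replicate block 0.

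ATF4 is the factor that follows amino acid shortage and other stresses through eIF2 phosphorylation. In depleted cells 17 of its 40 measured genes rose and 1 fell (median 0.52), and in control cells 12 rose and 0 fell (median 0.57). The difference between media passed for 2 members in each direction. TRIB3, a pseudokinase, had 1591, 2773 and 1919.4 at 72 h in depleted cells, against 615.3, 740.5 and 704.2 at 48 h. In control cells it had 1182.5, 1368.3 and 1182.5 at 72 h, against 761, 558.6 and 561.6 at 48 h. The times did not overlap in either medium (depleted 1.55, adjusted p = 0.000648; control 0.98, adjusted p = 0.0170), and the difference of 0.57 did not pass (adjusted p = 0.264).

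DDIT3, the transcription factor CHOP, rose by 1.69 (SE 0.20, adjusted p = 0.000689), with 0.60 in control cells (adjusted p = 0.156) and a difference of 1.08 (adjusted p = 0.0629). CTH, cystathionine gamma-lyase, rose by 1.34 in depleted cells and 0.77 in control cells. KLHL24, a ubiquitin ligase adaptor, had 169.2, 213.4 and 172.1 at 24 h, 76.2, 56.8 and 70.1 at 48 h and 352.8, 287.4 and 227.2 at 72 h in depleted cells. It was thus lowest at 48 h, and it rose by 1.85 (adjusted p = 0.000197) in depleted cells and 1.57 (adjusted p = 0.00160) in control cells.

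VLDLR, a lipoprotein receptor of this list, had a difference between media that passed (1.28, adjusted p = 0.00969), with 1.08 in depleted cells (adjusted p = 0.00141) and -0.20 in control cells (adjusted p = 0.560). In the earlier step of depleted cells the list had a median of -0.28 and 0 members passed. The change of the later step exceeded that of the earlier one for 10 members past the test. Over all probe sets, the 199 calls of that test became 3 to 21 without 1 of the depleted 48 h arrays. How many of the 10 members remained in such fits was not counted. For the later step itself, 13 to 15 members rose with 1 depleted array left out, 13 without set 2 and 5 without the replicate block.

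**Figure D3:**
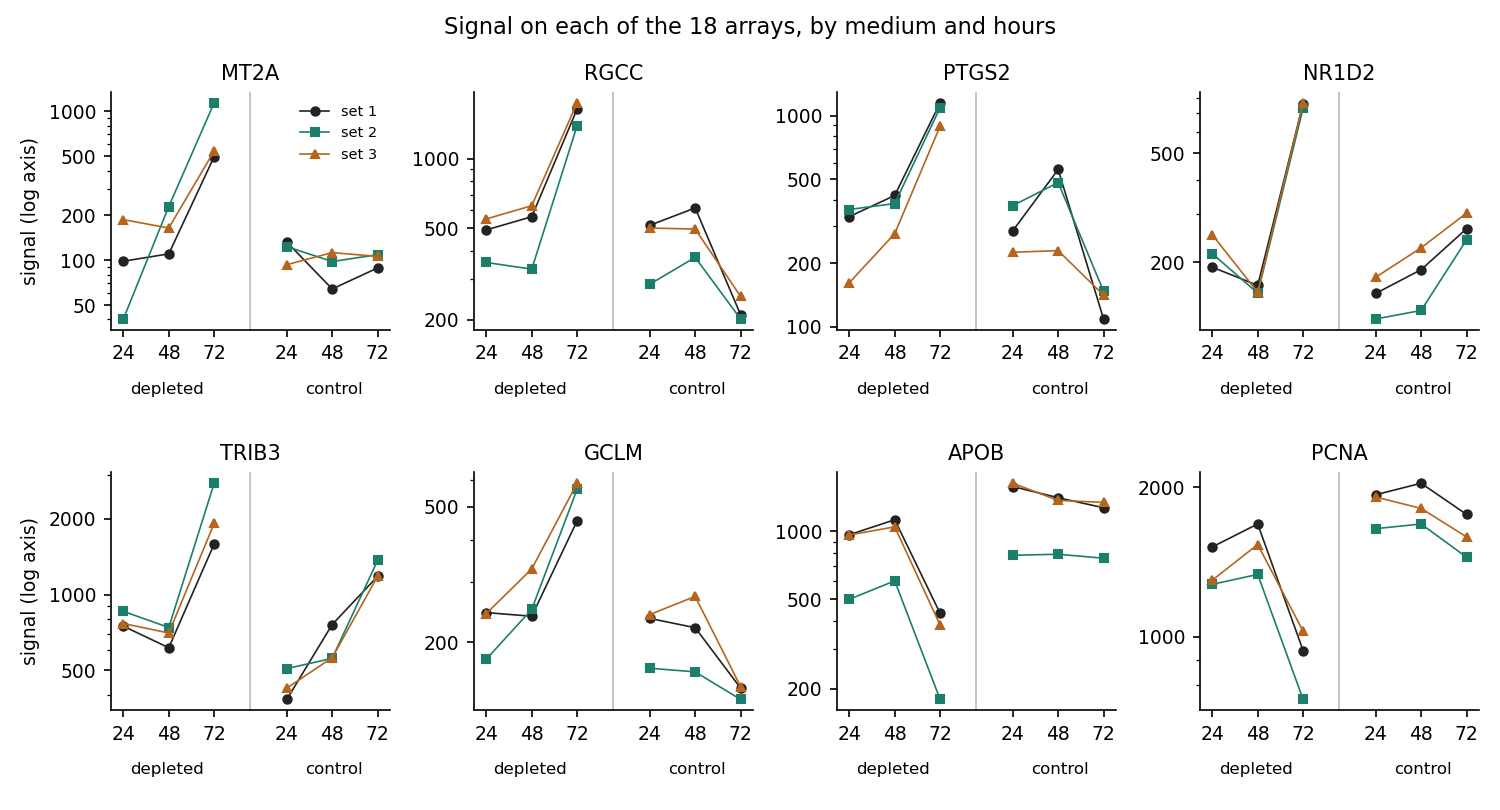
Signal (logarithmic axis) of 8 genes on each of the 18 arrays, by hours in depleted cells (left in each panel) and control cells (right), with 1 line for each set. MT2A, RGCC, PTGS2 and GCLM are higher at 72 h than at 48 h in every set of depleted cells and RGCC and PTGS2 lower in every set of control cells; NR1D2 and TRIB3 are higher at 72 h in both media, and APOB and PCNA are lower at 72 h in depleted cells.

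Among genes that act in DNA replication and at the G1/S transition, 45 were measured, of which 0 rose and 15 fell (median -0.32), against 1 that fell in control cells (median -0.15). For PCNA, the sliding clamp of replication, the signals were 938.3, 748.3 and 1026.5 at 72 h, against 1685.8, 1334.7 and 1532.8 at 48 h. No 72 h array reached a 48 h array (log2 -0.74, SE 0.12, adjusted p = 0.00329). UHRF1, which maintains DNA methylation through replication, had 254, 224.9 and 363 at 72 h, against 597.8, 434.5 and 887.8 at 48 h (log2 -1.11, SE 0.14, adjusted p = 0.000862).

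GINS1 and GINS2, subunits of the replicative helicase complex, fell by 0.85 (SE 0.14) and 0.78 (SE 0.13), and the G1/S cyclin CCNE1 by 0.87 (SE 0.15). The helicase subunits MCM3, MCM4 and MCM7 fell by 0.60, 0.70 and 0.83. For GINS2, 1 of 3 measured probe sets passed. UHRF1 alone of the 45 had a difference between media that passed (-1.13, adjusted p = 0.0127), and for PCNA it was -0.54 (adjusted p = 0.116). When 1 depleted array was left out 7 to 11 members fell, 7 without set 2, 10 after centring on the 75th percentile and 0 without the replicate block.

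Fewer genes of mitosis passed. Of 49 members of the G2/M list 1 rose and 3 fell (median -0.13), and in control cells 0 passed, with a median of -0.25. KIF14, a mitotic kinesin, had 128.5, 116.2 and 105.9 at 72 h, against 208.2, 233.2 and 171.6 at 48 h (log2 -0.72, SE 0.16, adjusted p = 0.0136), without overlap. Its call was lost in 3 of the 18 single-array omissions, and those of the kinesins KIF20A and KIF4A in 6 and 5. Without set 2, or without the block, 0 members passed.

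Genes that restrain division or follow p53 were mixed, with 6 of 25 higher and 2 lower (median 0.27). In control cells 0 of them rose and 1 fell (median 0.17). CCNG2, a cyclin of resting cells, had 1010.9, 1132.1 and 657.6 at 72 h, against 355.4, 376.8 and 230.2 at 48 h (log2 1.49, SE 0.29, adjusted p = 0.00811). The change of CCNG2 in control cells was 0.72 and did not pass, nor did the difference between media. BTG1, an antiproliferative factor, rose by 1.12 (SE 0.17). ZMAT3, a p53 target that binds RNA, fell by 0.96 (SE 0.16) through 1 of its 5 probe sets. RGCC and GADD45B, described above, are the other large rises of that list. It gave 4 to 5 rises when 1 depleted array was left out.

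Caco-2 cells also make proteins known from hepatocytes. Of 28 measured hepatic secreted proteins 0 rose and 4 fell (median -0.25), while in control cells 1 rose and 0 fell (median 0.15), and the difference passed for 3, all lower in depleted cells. APOB, the structural protein of chylomicrons and very low density lipoprotein, had 432.3, 179.1 and 383.4 at 72 h, against 1127.9, 602.9 and 1048.5 at 48 h. Each 72 h array lay below every 48 h array, a 2.78-fold lower level (log2 -1.48, SE 0.12, adjusted p = 0.000115). In control cells APOB had 1275, 760.6 and 1347.4 at 72 h, against 1413.2, 792 and 1375.1 at 48 h, and the difference between media was -1.40 (adjusted p = 0.00245).

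FGA and FGG, fibrinogen chains, fell by 1.32 (SE 0.18) and 1.04 (SE 0.21), and HABP2, a plasma protease, by 0.85 (SE 0.15). FGA did so through 1 of 2 probe sets. ALB, serum albumin, did not pass, with 512.8, 139 and 160.7 at 72 h against 359, 125.4 and 187.4 at 48 h. Nor did AFP, alpha-fetoprotein, with 333.5, 110 and 176.2 at 72 h against 373.9, 187.1 and 190.5 at 48 h. FGA and FGG are also 2 of the 13 measured hepatocyte markers, of which no other passed. The summed signal of these markers was 9208 to 11020 at 72 h, against 8549 to 11050 at 48 h. When 1 depleted array was left out 4 to 5 members of the hepatic list fell, 3 without set 2, and 1 without the replicate block.

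Genes of the enterocyte differentiation list, which are not all markers of absorptive cells, went both ways, with 3 of 29 higher and 2 lower. Those that fell were FABP1 and CA2, and those that rose were KLF5, CEACAM6 and ELF3. ELF3 rose by 0.64 (adjusted p = 0.0269), a call lost in 5 of the single-array omissions. FABP1, the liver-type fatty acid binding protein that is abundant in enterocytes, had 248.7, 66.4 and 223.6 at 72 h, against 993.3, 197.9 and 708.4 at 48 h. It was lower at 72 h in every set although the groups overlapped through set 2 (log2 -1.63, SE 0.25, adjusted p = 0.00275; 1 of 2 probe sets). With both probe sets averaged, the change was -0.92 and did not pass (adjusted p = 0.108). In control cells FABP1 had 1598.6, 625.4 and 897.6 at 72 h, against 1118.6, 443.9 and 811.6 at 48 h, and the difference was -2.01 (adjusted p = 0.0139).

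CA2, carbonic anhydrase 2, had 99.1, 71.5 and 127 at 72 h, against 223.6, 175.4 and 252.3 at 48 h (log2 -1.03, SE 0.15, adjusted p = 0.00209). KLF5, a transcription factor of proliferating crypt cells, rose by 1.00 (SE 0.20). CEACAM6, an adhesion molecule, rose by 0.69 (SE 0.15, adjusted p = 0.0123) and was at 615.9, 618.4 and 575.5 at 24 h, 1129.7, 1052.4 and 1064.6 at 48 h and 1799.1, 1766 and 1717.1 at 72 h. Its later rise was lost without the 48 h array of set 2 (0.63, adjusted p = 0.0521), and its earlier change of 0.83 did not pass. Without set 2, 0 members of the enterocyte list rose and 2 fell, and without the replicate block 0 passed.

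No gene of flavin transport and cofactor synthesis passed the test. All 7 measured members of the riboflavin transport and flavin cofactor list, the transporters SLC52A2 and SLC52A3, riboflavin kinase RFK, FAD synthase FLAD1, the mitochondrial carrier SLC25A32 and the hydrolases ACP1 and ENPP1, failed the test in both media. Their changes lay between -0.16 (ACP1) and 0.14 (RFK). For RFK the signals were 192.9, 330.4 and 139 at 72 h, against 202.7, 219 and 148.4 at 48 h. SLC52A2 had 143, 198.6 and 253 at 72 h, against 176.3, 170.8 and 238.9 at 48 h. In both genes the arrays overlapped, and SEs of 0.18 and 0.20 limit what size of change could have been seen.

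Of the enzymes that bind FAD or FMN, 61 were measured, of which 3 rose and 6 fell (median -0.11). Among those that rose were TXNRD1 and GSR, given above. ACADM, the medium-chain acyl-CoA dehydrogenase of fatty acid oxidation, had 456.7, 562.7 and 359.1 at 72 h, against 791.9, 878 and 652 at 48 h (log2 -0.74, SE 0.15, adjusted p = 0.00835). PCYOX1, prenylcysteine oxidase, had 578.4, 616.4 and 561.4 at 72 h, against 967.3, 1196.9 and 939.1 at 48 h, and its difference between media passed (-0.85, adjusted p = 0.0378). Both were lower on every 72 h array.

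The short/branched-chain acyl-CoA dehydrogenase ACADSB (-0.60), D-2-hydroxyglutarate dehydrogenase D2HGDH (-1.59) and iodotyrosine deiodinase IYD (-0.99) passed as well. Their calls were lost in 5, 6 and 14 of the 18 single-array omissions, with adjusted p of up to 0.142, 0.122 and 0.188. Over the list, 1 rose and 2 to 4 fell when 1 depleted array was left out, 1 rose and 4 fell without set 2, and 0 passed without the replicate block.

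A minority of the respiratory chain subunits passed as lower. Of 33 measured subunits of complex I, which carries FMN, 0 rose and 7 fell (median -0.31), and of 35 subunits of complexes II to V 0 rose and 5 fell (median -0.15). In control cells 0 subunits passed in either list, with medians of -0.11 for complex I and -0.18 for complexes II to V, so for the second list the median was no lower in depleted cells than in control cells. NDUFB2, an accessory subunit of complex I, had 565.3, 690.6 and 605.9 at 72 h, against 1171.5, 1113.7 and 1160 at 48 h (log2 -0.88, SE 0.14, adjusted p = 0.00314). ATP5MC1, a c subunit of ATP synthase, had 235.1, 280.9 and 208.2 at 72 h, against 540, 533.9 and 350.5 at 48 h (log2 -0.92, SE 0.15, adjusted p = 0.00316).

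UQCRQ, of complex III, fell by 0.76 (SE 0.13). In all 3 subunits every 72 h array was below every 48 h array, and the difference between media passed for ATP5MC1 (-0.94, adjusted p = 0.0325) but not for NDUFB2 (-0.52, adjusted p = 0.186). The counts depended on the fit. When 1 depleted array was left out 2 to 5 complex I subunits and 2 to 4 of the others fell, without set 2 it was 2 and 1, and without the replicate block 1 and 0. NDUFA2, which fell by 0.57, was at 0.08 when all its probe sets were averaged.

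**Figure D4:**
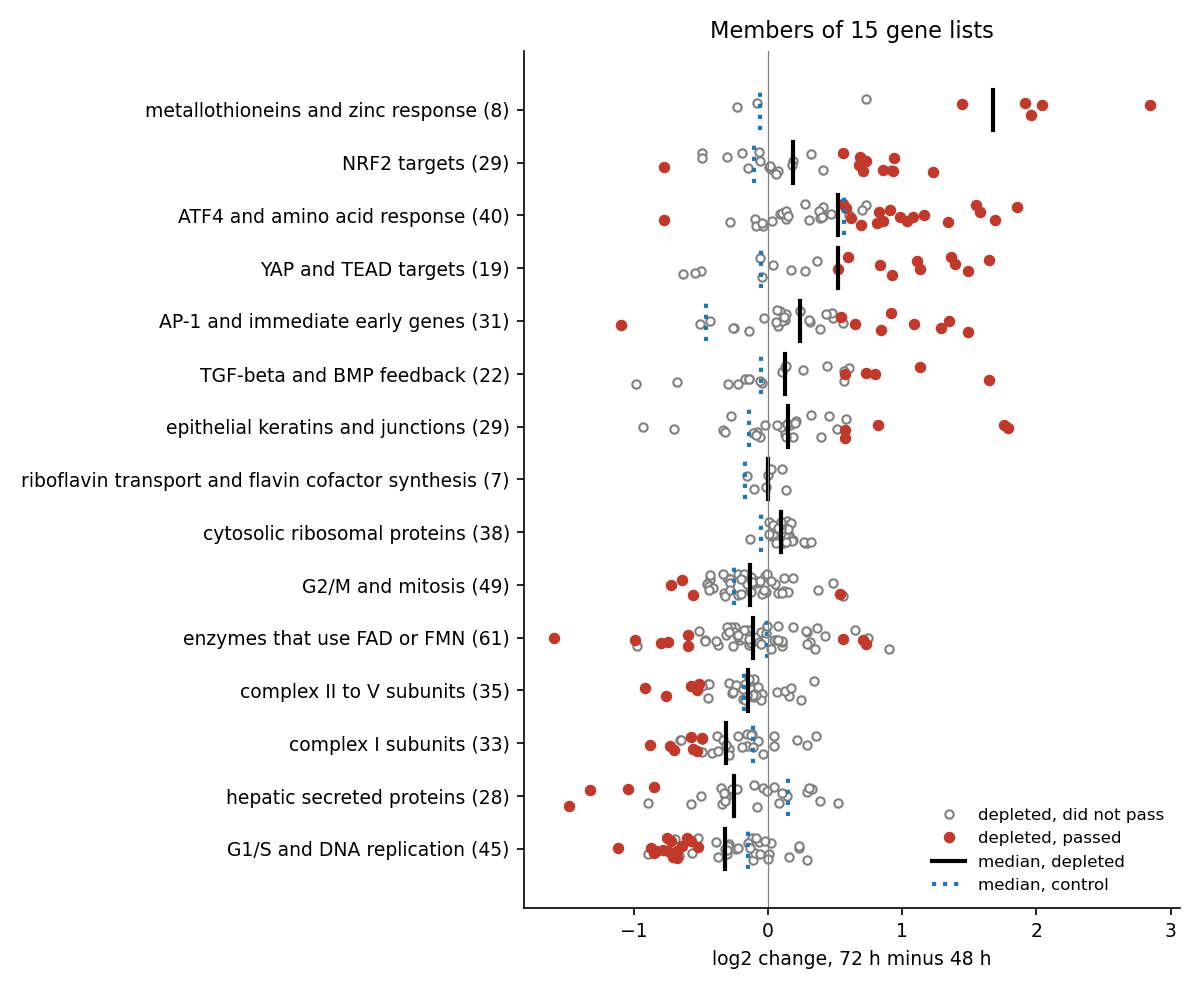
Log2 change between 72 h and 48 h in depleted cells (horizontal axis) of each measured member of 15 lists, filled red where the test was passed, with the list's median in depleted cells (black) and in control cells (dotted blue). Metallothioneins have a median of 1.68 in depleted and -0.06 in control cells, ATF4 genes 0.52 and 0.57, and G1/S genes -0.32 and -0.15.

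Of 16 measured heat shock proteins 1 rose and 3 fell (median -0.07), against 0 that rose and 5 that fell in control cells. HSPE1, the mitochondrial cochaperonin, had 2180.6, 1778.2 and 2063.3 at 72 h, against 4203.1, 4362.3 and 3947.5 at 48 h (log2 -1.05, SE 0.13, adjusted p = 0.000704). In control cells it had 3159.3, 3421.4 and 3051.9 at 72 h, against 4457.9, 4096.2 and 4501.9 at 48 h, which did not pass (-0.44, adjusted p = 0.104). The small chaperone HSPB1 fell in both media (-0.75 in depleted and -0.99 in control cells). Of 38 measured cytosolic ribosomal proteins 0 passed, with a median of 0.10.

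Outside the lists, the largest changes named by rule included regulators of transcription. NR1D2, the haem-binding circadian repressor REV-ERB beta, had 761, 731.7 and 765.9 at 72 h, against 164.4, 154.1 and 155.2 at 48 h. Both groups were tight and far apart (4.42-fold, log2 2.14, SE 0.15, adjusted p = 3.24e-05), and both of its probe sets passed. In control cells NR1D2 had 265, 241.3 and 302.2 at 72 h, against 187.7, 133.1 and 225.7 at 48 h (0.55, adjusted p = 0.0849), and the difference passed (1.60, adjusted p = 0.00283). TFAP2C, the factor AP-2 gamma, rose by 1.69 (SE 0.24) and CREBRF, which restrains CREB3, by 1.73 (SE 0.18), CREBRF through all 5 of its probe sets.

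TEX19, a gene best known from germ cells, had 384.1, 353.9 and 346.3 at 72 h, against 57.5, 84.3 and 69 at 48 h (log2 2.14, SE 0.20, adjusted p = 0.000197). PLAAT2, a phospholipid acyltransferase, had 85.1, 135.2 and 107.7 at 72 h, against 9, 6.4 and 27.4 at 48 h (log2 2.09, SE 0.26, adjusted p = 0.000862), with 9.9, 13.4 and 12.1 at 72 h in control cells against 32.4, 44 and 20.8 at 48 h. Its difference between media was 2.87 (adjusted p = 0.00269). CAPN10, a calpain protease, rose by 1.92 (SE 0.30) through 1 of 2 probe sets. Its change in control cells was 0.745, and the difference between media did not pass.

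Of the largest falls, ZNRF3, a ubiquitin ligase that removes Wnt receptors from the surface, had 149.4, 181.6 and 164.3 at 72 h, against 450.5, 493.2 and 421.9 at 48 h. The groups were far apart (log2 -1.38, SE 0.13, adjusted p = 0.000197), and in control cells it had 473.6, 594.9 and 464.6 at 72 h against 492.9, 510.9 and 360.1 at 48 h. Its difference between media passed (-1.55, adjusted p = 0.00237). AXIN2, a Wnt feedback gene, fell by 0.69 (SE 0.17, adjusted p = 0.0286) through 1 of 4 probe sets, a call lost in 5 of the 18 single-array omissions.

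TMT1B, a thiol methyltransferase, fell by 1.69 (SE 0.26), the membrane protein TMEM14A by 1.35 (SE 0.18), the Holliday junction resolvase GEN1 by 1.38 (SE 0.18) and the phospholipid flippase ATP10D by 1.30 (SE 0.23). GAS2, growth arrest-specific 2, had 23.5, 22.3 and 1.2 at 72 h, against 73.8, 63.4 and 63.5 at 48 h. In control cells GAS2 had 132.3, 105.3 and 106.6 at 72 h, against 45.7, 64.6 and 29.6 at 48 h. The difference between media was -2.58 (SE 0.38, adjusted p = 0.00563), and control arrays did not overlap either although their change did not pass (1.09, adjusted p = 0.0626). TXNIP, the thioredoxin-interacting protein, was lower at each later time, with 197.1, 257 and 178.9 at 24 h, 138.5, 84.9 and 92.9 at 48 h and 51.6, 29.7 and 21.6 at 72 h. Its later change passed (-1.29, adjusted p = 0.00243) through 1 of 3 probe sets and its earlier one of -0.91 did not.

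Of the 185 genes named by rule 132 passed in the later step. Of these, 80 kept their call in all 18 single-array omissions and 52 lost it in at least 1, and no direction changed in those fits. Without the replicate block 37 of the 132 kept their call, among them MT1X, MT2A, NR1D2, TEX19, PLAAT2, KLHL24, RGCC, PTGS2, CCN2, ANKRD1, DUSP1, DUSP4, EMP1, CLIC5, TRIB3, DDIT3, ZNRF3, HSPE1 and NDUFB2. APOB, FABP1, UHRF1, PCNA, GCLC and GCLM were among those that lost it. Without set 2, 77 kept it, the most of any whole-set omission. Without set 1 none of them kept the call, since 0 probe sets passed there. Without set 3, where 10 probe sets passed, NR1D2, PLAAT2, KLHL24 and CCN2 were among those that kept it.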

How the data were processed

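Total RNA of Caco-2 cells was biotin-labelled and hybridised to Affymetrix arrays. The values used are the deposited signal intensities of 54675 probe sets on 18 arrays, which are MAS5 signals per the submitters' processing notes, on a linear scale with a trimmed mean of 100.011 to 100.014 on every array. Which MAS5 version was run is not given in the sources, and raw intensities and detection calls were not used.

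The 62 control probe sets were left out, signals were taken as log2(signal + 16), and the 27307 probe sets with a mean of at least 5.1546, a signal of 19.62, were tested. Of these, 22946 had 1 gene symbol, 1096 several and 3265 none, by the annotation of the platform, with 0 symbols to be updated in GRCh38.p14. Genes were taken through their probe set of highest mean, and symbols of near-identical genes were kept as the platform gives them.

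All 18 arrays were fitted in limma 3.58.1 (R 4.3.3) as 6 group means plus the set as a block, with 10 residual and 3.62 prior degrees of freedom and Benjamini-Hochberg adjustment over all probe sets. The block was used because the numbering pairs the groups and arrays correlated within a set at 0.302 to 0.602 (45 pairs, after group means were taken away) and between sets at -0.754 to 0.163. Each of the 18 correlated best with its own set. Taking away group means by itself pushes arrays of the same group, which lie in different sets, towards negative correlation. The low end of the between-set range is therefore partly built in. The 0 identical pairs of arrays were looked for directly.

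Genes were named by a rule: the 15 largest rises and falls that went 1 way in all 3 sets, up to 5 called members of each of 40 lists by smallest p, the 5 largest differences between media in each direction, all riboflavin transport genes, and the markers. A value given for another gene was chosen after its value was seen. The comparison, the lists and the rule were chosen with earlier results of these data known, so a list's count is a description, and no list was tested as a set. Alternatives changed the block, the arrays, the pseudocount, the filter, the scaling, the variance trend and the choice of probe set. Plots used matplotlib 3.10.9 under Python 3.11.15.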

Additional observations from a re-analysis of the deposited data

Results flagged for a closer look

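The step between 48 h and 72 h differed between depleted and control cells for 615 probe sets, by the interaction test in limma, and for 54 of the 185 named genes. The values below are the change in depleted cells minus the change in control cells, on the log2 scale. Each had an adjusted p under 0.05 in that test. Whether each gene kept this call in the other fits was not examined. Over all probe sets the count of 615 fell to 46 without the replicate block and to 0 to 107 with a whole set left out.

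Among genes with a higher change in depleted cells, the metallothioneins MT1H and MT1X had differences of 3.20 and 2.23. MT1H reached the limit for testing only through the depleted 72 h arrays, so its value is a description only. Signalling and growth factor genes were NPPB at 3.64, PTGS2 at 2.99, RGCC at 2.75, TGFB2 at 1.99, EREG at 1.26, SPRED1, an inhibitor of Ras signalling, at 0.83, and the phosphatases DUSP4 at 2.27 and DUSP1 at 1.79. Targets of YAP and TEAD or of the TGF-beta response were CCN2 at 2.36, ANKRD1 at 2.32, THBS1, the matrix protein thrombospondin 1, at 1.74, GADD45B at 1.41, CRIM1 at 1.20 and the corepressor TGIF1 at 1.20. Epithelial surface genes were EMP1 at 2.36, GPRC5A at 1.77, ANXA1 at 1.55, CLIC5 at 1.40 and CEACAM6 at 1.09. Transcription factors were TFAP2C at 1.75, NR1D2 at 1.60 and MYC at 1.48. Of the NRF2 list, GCLM was at 1.47, TXNRD1 at 1.13, GCLC at 0.98 and ME1 at 0.70. PLAAT2 was at 2.87, TEX19 at 1.52, VLDLR at 1.28 and ECT2, a cytokinesis regulator, at 0.90.

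Among genes with a lower change in depleted cells, those of lipid transport and the gut were FABP1 at -2.01, APOB at -1.40 and CA2 at -1.01, and the fibrinogen chain FGA was at -1.38. Enzymes were TMT1B at -1.71, PC (pyruvate carboxylase) at -2.10, IYD at -2.12, PCYOX1 at -0.85, the CYP3A7-CYP3A51P readthrough at -1.50 and ATP5MC1 at -0.94. Genes of DNA and chromatin were UHRF1 at -1.13, GEN1 at -1.22 and SETBP1 at -2.09, which reached that limit only through the depleted 48 h arrays and is likewise a description. The rest were GAS2 at -2.58, LTB4R, a leukotriene B4 receptor, at -2.55, PEX11A, a peroxisome division protein, at -1.79, TUBA4B at -1.68, ZNRF3 at -1.55, ATP10D at -1.50, LAMA1, a laminin chain, at -1.47, TMEM14A at -1.20 and ZMAT3 at -0.93. In LTB4R the signals were 3.9, 7.3 and 6.1 at 72 h in depleted cells, against 21, 56.4 and 39 at 48 h, and 29.2, 32.6 and 55.7 at 72 h in control cells, against 6.5, 7.7 and 5.3 at 48 h, all dim.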

How the results depend on the processing

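The counts are given here in the order depleted 72 h against 48 h, control 72 h against 48 h, difference between media, and later against earlier step, with 2168, 371, 615 and 199 probe sets as reported. Without the replicate block, that is without the pairing by set, they were 263, 19, 46 and 3, and 28 of 157 list calls and 37 of 132 named genes passed. With only the 6 depleted arrays of 48 h and 72 h, 0 probe sets, 0 list members and 0 named genes passed in limma (6717 probe sets at an unadjusted p under 0.05), and this fit has fewer arrays from which to estimate the spread. A pseudocount of 4 left 127 for later against earlier, and one of 64 gave 715 (control), 994 (media) and 624 (later against earlier), with 90 in the earlier step. With no filter on dim probe sets the counts were 937, 113, 153 and 22, with 84 list calls. With a filter at the upper quartile the control, media and later counts were 990, 1087 and 876, with 178 in the earlier step. An intensity trend in the variances gave 895, 987 and 701, with 159 in the earlier step. Centring on the 75th percentile gave 102 for later against earlier and turned the split of the control step to 115 higher and 257 lower, against 213 and 158.

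Leaving out 1 array or 1 set gave 0 to 2331, 0 to 409, 0 to 663 and 0 to 232, with 0 to 4 in the earlier step, 0 to 164 list calls and 0 to 130 named genes. The lows come from leaving out a whole set. With 1 array left out the count for the depleted step was 1011 to 2331. With all probe sets of a gene averaged, 111 of the 132 named genes kept their call. NDUFA2 and EGFR reversed, to 0.08 and -0.02, and FABP1 (-0.92), EPB41L4A-AS1 (0.35), EREG (0.44), CAPN10 (0.80), TGFB2 (0.72), ME1 (0.25), ZMAT3 (-0.23), EGR1 (-0.79), AXIN2 (-0.30), SOX9 (-0.49), TFE3 (0.46), TGIF1, ECT2, HERPUD1, IRS2, MED31, NDUFB1, SMURF1 and SMURF2 no longer passed, with adjusted p of 0.0513 to 0.479 or, for SMURF1, 0.635. Other causes of these moves were not tested. Dim probe sets, near the signal of 19.62, limit what can be read from their folds.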

Other observations

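Among lists not described above, matrix and basement membrane genes went both ways in the later step, with 2 of 26 higher and 2 lower. THBS1, thrombospondin 1, had 304.7, 283.1 and 351.8 at 72 h in depleted cells, against 108.6, 120.3 and 129.8 at 48 h, and LAMA1, a laminin chain of basement membranes, had 122.7, 46.7 and 53.9 at 72 h, against 195, 124.9 and 114.7 at 48 h. THBS1 rose by log2 1.28 (SE 0.18) and LAMA1 fell by 0.89 (SE 0.16). LAMA1 was at 419, 247.2 and 176.5 at 24 h, so its lowest values in set 1, set 2 and set 3 were those of 72 h. In control cells LAMA1 had 697.6, 400.8 and 411.6 at 72 h, against 379.9, 303.9 and 288.1 at 48 h. Of 34 lysosome and autophagy genes 3 rose, GABARAPL1, UVRAG and TFE3, and 0 fell. TFE3 lost its call in 4 of the 18 single-array omissions.

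Of 31 hypoxia and glycolysis genes 5 rose and 4 fell. VEGFA, the angiogenic growth factor, rose by 1.16 (SE 0.17) through 4 of 4 probe sets, while EGLN3, an oxygen-sensing hydroxylase, fell by 1.18 (SE 0.24), with a call lost in 2 of the 18 single-array omissions. BNIP3L, a mitophagy receptor, rose by 0.96 in depleted cells and by 1.15 in control cells. The noncoding RNA EPB41L4A-AS1 had 1885, 2153.8 and 1370.6 at 24 h, 1089.7, 853.2 and 832.3 at 48 h and 2305.8, 3109.7 and 1892.2 at 72 h in depleted cells. It rose in both media in the later step (1.36 in depleted and 1.03 in control cells), but the average of its probe sets in depleted cells, 0.35, did not pass (adjusted p = 0.261). SLC25A38, the mitochondrial glycine carrier of haem synthesis, rose by 1.04 (SE 0.18) and was the only one of 22 iron and haem genes to pass.

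Cholesterol synthesis had 1 of 19 genes higher and 2 lower, interferon response genes 0 of 20 higher and 2 lower, and ribosome biogenesis genes, of which MYC rose, 1 of 28. Of 10 measured stem cell markers 0 rose and 2 fell, SOX9 and AXIN2, and their summed signal was 2878 to 3540 at 72 h in depleted cells, against 3690 to 4025 at 48 h. LGR5, the intestinal stem cell receptor, had 101.9, 55.9 and 80.7 at 72 h, against 191.8, 112.2 and 156.6 at 48 h, and did not pass (adjusted p = 0.0551).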
